A study of Rattus norvegicus with 9 samples.

Results

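This account covers 9 protein-coding rat genes that interferons are known to induce: Oas1k, Oas1a, Oas2, Mx1, Mx2, Ifit2, Ifit3, Irf7 and Isg15. They were picked by name from the 35360 genes of a count table, and all 9 passed the filter on low counts. The group was picked because Oas1k was lower in ALN+Gel and higher in Mg-ALN@Gel, so the values of Oas1k are given as a description, with no test. RNA came from the middle of a fractured rat femur, and messenger RNA selected by its poly-A tail was sequenced in 9 libraries. Fractures in the Mg-ALN@Gel group (3 libraries) received a gel holding a magnesium and ALN material, described by the submitters as a MOF-based bone adhesive. Those in the ALN+Gel group (3 libraries) received the gel with ALN, a bisphosphonate, and those in the Gel group (3 libraries) received the gel alone, so that the gel was common to all 3. Neither strain, sex, age, time after fracture nor dose is given in the labels. The submitters' design text names bone fibrosis under the bisphosphonate as the study's subject. The labels also do not say whether replicates were separate animals, so the p-values rest on variation among these libraries that could be technical.

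Interferons are secreted proteins that cells release when they sense foreign or misplaced nucleic acid. Type I interferon binds the receptor formed by Ifnar1 and Ifnar2, the kinases Jak1 and Tyk2 then activate STAT proteins, and a complex that includes Stat2 and Irf9 binds response elements in the promoters of target genes. The products include enzymes that respond to double-stranded RNA, GTPases that block viral particles, RNA-binding proteins and a ubiquitin-like modifier. In mouse bone, interferon-beta made by osteoclast precursors is known to hold back the formation of osteoclasts.

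The core of the interferon-stimulated response element, GAAA followed after any 2 bases by another GAAA, was searched on both strands from 250 bases before to 50 bases after each gene's start in the RefSeq annotation of assembly GRCr8. Of the 9 genes, 4 had a promoter there (Oas1a, Mx1, Ifit3 and Irf7), and Oas1k, Oas2, Mx2, Ifit2 and Isg15 had no entry. The element was found in 3 of the 4, in 40 of 96 promoters of other interferon-pathway genes (41.7%) and in 1312 of all 33469 promoters (3.92%). The stretches below show those 3 cases, written 5′ to 3′ on the gene's strand, with the matched bases in capitals. They lie at chr12:41330395-41330465 on the plus strand for Oas1a, chr1:241527252-241527321 on the plus strand for Ifit3 and chr1:205800053-205800122 on the minus strand for Irf7.
Oas1a: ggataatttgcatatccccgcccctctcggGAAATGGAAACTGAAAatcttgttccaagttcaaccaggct
Ifit3: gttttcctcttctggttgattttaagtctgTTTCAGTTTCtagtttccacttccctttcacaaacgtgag
Irf7: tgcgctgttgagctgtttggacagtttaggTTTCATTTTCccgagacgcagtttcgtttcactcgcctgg
Oas1a held 2 overlapping matches, from position −41 to −26 relative to the start, both read on the printed strand. In Ifit3 (from −44 to −35) and Irf7 (from −69 to −60) the match was on the opposite strand and reads as TTTC, 2 bases and TTTC when printed. The Mx1 window held no match to these letters. A match describes the sequence only.

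Total counts per library were 13388689 to 18763270. Replicates varied widely (common biological coefficient of variation 51.4% over the 15460 genes tested), and mitochondrial transcripts took 4.16% to 39.5% of the counts. With edgeR's quasi-likelihood test, 0 of the 15460 genes (0%) passed an adjusted p of 0.05 in any of the 3 comparisons, which were ALN+Gel against Gel, then Mg-ALN@Gel against ALN+Gel, and last Mg-ALN@Gel against Gel. At an unadjusted p under 0.05 the shares were 8.2%, 9.19% and 9.31% in that order. DESeq2 called 135, 178 and 51 genes (0.873%, 1.15% and 0.33%), and limma-voom with quality weights 263, 2 and 0 (1.7%, 0.0129% and 0%). Values are CPM, read counts relative to library sizes scaled by the TMM method, and group values are means ± SD with n = 3. In bulk tissue, fewer cells of a type and less RNA per cell cannot be told apart.

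Per kilobase of the gene length in the deposited table, levels over all 9 libraries ran from 59.5 CPM per kb for Ifit3 and 29.3 for Irf7, through 15.1 for Isg15, 10.1 for Ifit2, 6.65 for Mx1, 4.62 for Mx2, 3.46 for Oas1a and 2.96 for Oas1k, to 0.776 for Oas2. These levels were measured with few interferon transcripts in the same libraries. Of 11 interferon ligand genes in the table, 8 had 0 counts in every library, which at a floor of 3 counts allows up to 0.169 to 0.236 CPM per library. The other ligands were Ifne, Ifng and Ifnl1 with 5, 3 and 2 counts over all 9 libraries. Transcripts of the receptor were present, with Ifnar1 at 176 ± 29.6 CPM in Mg-ALN@Gel, 202 ± 104 CPM in ALN+Gel and 203 ± 60.8 CPM in Gel, and Ifnar2 at 24.0 ± 6.46, 27.1 ± 8.16 and 31.9 ± 14.1 CPM in the same groups.

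Oas1k (ENSRNOG00000033220) is annotated as a member of the oligoadenylate synthetases, a family known for making short oligoadenylates when they bind double-stranded RNA. Its description in the deposited table cites the rat protein named inactive oligoadenylate synthase 1B. Oas1k had 304, 430 and 437 counts in the Mg-ALN@Gel libraries 1 to 3, 99, 77 and 87 counts in ALN+Gel, and 172, 233 and 276 counts in Gel. Scaled, these were 24.0, 25.6 and 27.8 CPM in Mg-ALN@Gel (25.8 ± 1.90), 7.68, 4.83 and 5.29 CPM in ALN+Gel (5.93 ± 1.53), and 12.2, 13.1 and 17.3 CPM in Gel (14.2 ± 2.70). The 3 groups did not overlap, with every Mg-ALN@Gel library above every Gel library and every Gel library above every ALN+Gel library. Over all tested genes, groups lay apart in those directions for 5.03% (ALN+Gel below Gel), 6.76% (Mg-ALN@Gel above ALN+Gel) and 9.76% (Mg-ALN@Gel above Gel).

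For ALN+Gel against Gel the log2 fold change of Oas1k was −1.26 (SE 0.26). For Mg-ALN@Gel it was 2.12 (SE 0.27) against ALN+Gel and 0.86 (SE 0.26) against Gel. These are the values the gene was chosen for. Across all alternatives of processing and with each library left out in turn, they ranged from −1.49 to −1.16, from 2.03 to 2.34 and from 0.75 to 1.0. The spread of Oas1k within groups was 0.261 on the log2 CPM scale, against 0.530 to 1.80 for the other 8 genes and a median of 0.517 over all tested genes. By this spread Oas1k stood at percentile 17.6 of the tested genes. A gene chosen for differences between its groups tends to have a small spread, so this value is a description too. Summed osteoclast markers also separated the ALN+Gel libraries from the others, at 3687 to 12206 CPM in Mg-ALN@Gel, 21295 to 31113 CPM in ALN+Gel and 2171 to 18015 CPM in Gel. Of the 10 genes of this list, 5 separated ALN+Gel singly (Ctsk, which made up 50.7% of the sum, with Mmp9, Calcr, Atp6v0d2 and Tnfrsf11a), while Acp5, Ocstamp, Nfatc1 and Oscar overlapped and Dcstamp was at or near 0. Beside these, ALN+Gel lay wholly above Gel for 11.1% of all tested genes, and wholly above Mg-ALN@Gel for 9.77%. The share of genes with both at once was not counted. Summed dendritic cell markers were lower in Mg-ALN@Gel, at 46.2 to 68.0 CPM, than in ALN+Gel, at 76.9 to 181 CPM, and Gel, at 68.9 to 203 CPM. In that list 2 of 10 genes, Flt3 and Clec9a, lay lower in every Mg-ALN@Gel library than in the other 6. Mg-ALN@Gel lay wholly below ALN+Gel for 9.77% of all tested genes and wholly below Gel for 8.56%. Genes with both at once were again not counted. Summed osteoblast markers set Gel apart, at 52727 to 111802 CPM, from Mg-ALN@Gel, at 34961 to 44696 CPM, and ALN+Gel, at 25128 to 37337 CPM. Col1a1 made up 78.2% of that sum, and without it the groups overlapped. Sums were made for other cell types too, and the lists given here are those that set a group apart. The part of any of these lists in the Oas1k values was not tested.

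The gene model of Oas1k is longer than those of the nearby OAS genes. In the deposited table it lies on chromosome 12 from 41227825 to 41307352 on the minus strand, in coordinates whose build is not given in the sources used here. It spans 79.5 kb with 5180 exonic bases, whereas Oas1e, Oas1h, Oas1a, Oas1g and LOC103689988, which also lie in the cluster, span 8.94 to 12 kb each. Oas3 spans 19.8 kb and Oas2 22.3 kb, and Rph3a, a gene beyond Oas1g, spans 74.7 kb. Oas1e lies inside the Oas1k span on the opposite strand and had 7 counts in all 9 libraries together, against 2115 for Oas1k. In the RefSeq order of assembly GRCr8, Oas1b and Oas1f stand between Oas1h and Oas1e, and neither they nor Oas1d have a row of that name in the deposited table. How reads that match several Oas1 paralogs were counted is not given in the sources used here, and the values of Oas1k and the other Oas1 genes are therefore uncertain in their division among paralogs.

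**Figure D1:**
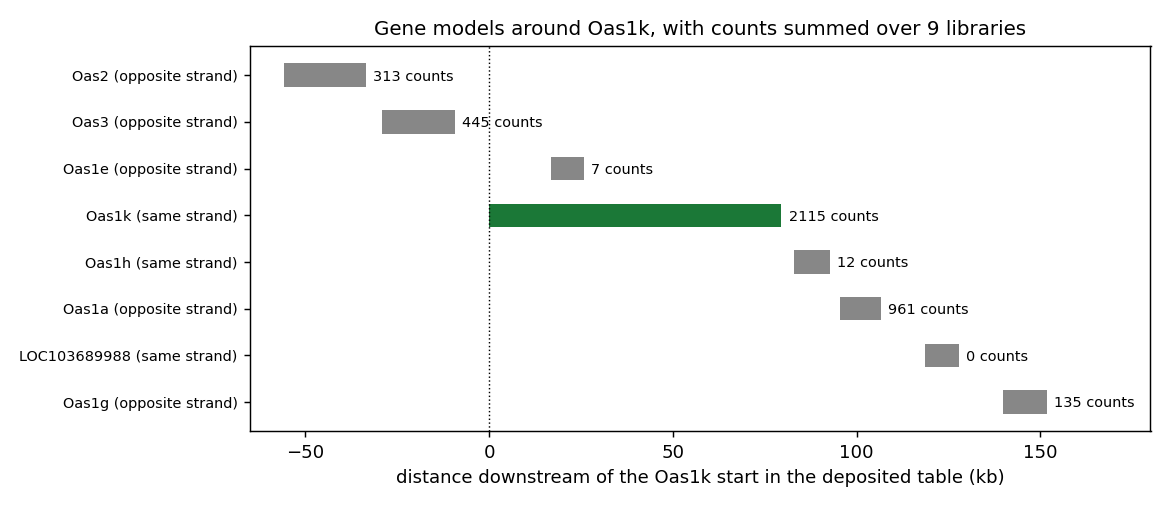
Gene models of the Oas cluster by distance in kb downstream of the Oas1k start on its own strand, with bars for gene spans and labels for counts summed over the 9 libraries. The Oas1k bar covers 79.5 kb, encloses Oas1e and carries 2115 counts. Rph3a, beyond Oas1g, is not drawn.

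The groups of the other OAS members, Oas1a and Oas2, overlapped in every comparison but 1. Oas1a (ENSRNOG00000001369, chromosome 12, 41200718 to 41211909), an OAS1 synthetase, had 3.47, 10.5 and 0.191 CPM in Mg-ALN@Gel (4.71 ± 5.26), 10.6, 5.33 and 5.96 CPM in ALN+Gel (7.31 ± 2.89), and 11.6, 3.10 and 12.5 CPM in Gel (9.08 ± 5.2). The lowest value, in Mg-ALN@Gel library 3, was 3 counts, and the groups overlapped in every comparison. Oas2 (ENSRNOG00000049282, chromosome 12, 41340815 to 41363161), a larger synthetase of the same family, had 1.97, 4.77 and 2.99 CPM in Mg-ALN@Gel (3.24 ± 1.41), 1.94, 1.19 and 1.76 CPM in ALN+Gel (1.63 ± 0.39), and 2.06, 0.395 and 3.26 CPM in Gel (1.91 ± 1.44). Every Mg-ALN@Gel library lay above every ALN+Gel library for Oas2, the nearest values being 1.97 and 1.94 CPM, and the Gel libraries overlapped with both. Among the 8 genes other than Oas1k, Oas2 was the 1 whose Mg-ALN@Gel values lay wholly above those of ALN+Gel, beside the 6.76% of all tested genes. Its log2 fold change there was 0.99 (SE 0.73, edgeR adjusted p = 0.695). Groups lay apart in either direction for 0 of the 8 in the other comparisons, beside 16.1% (ALN+Gel against Gel) and 18.3% (Mg-ALN@Gel against Gel) of all genes.

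Mx1 and Mx2 encode dynamin-like GTPases known to block the replication of viruses. Mx1 (ENSRNOG00000001959, chromosome 11, 37891156 to 37914983) had 10.8, 60.8 and 2.92 CPM in Mg-ALN@Gel (24.8 ± 31.4), 48.4, 15.5 and 18.5 CPM in ALN+Gel (27.5 ± 18.2), and 11, 10.5 and 20.1 CPM in Gel (13.9 ± 5.43). Mx2 (ENSRNOG00000001963, chromosome 11, 38035450 to 38059950), whose description in the table cites the rat Mx3 protein, had 7.33, 28.5 and 0.953 CPM in Mg-ALN@Gel (12.3 ± 14.4), 29.9, 6.02 and 13.7 CPM in ALN+Gel (16.5 ± 12.2), and 19.6, 2.65 and 13.0 CPM in Gel (11.8 ± 8.57). In both, the Mg-ALN@Gel group held the library that was lowest of all 9, library 3, and a library among the highest 2, library 2. Both sets of 3 group ranges overlapped, and as the genes are close paralogs their counts may be divided unevenly between them.

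Ifit2 and Ifit3 encode tetratricopeptide repeat proteins that bind RNA or one another and restrain viral translation. Ifit2 (ENSRNOG00000036604, chromosome 1, 252894663 to 252900726) had 29.3, 48.5 and 26.5 CPM in Mg-ALN@Gel (34.8 ± 12), 42.8, 27.4 and 32.2 CPM in ALN+Gel (34.1 ± 7.91), and 19.2, 31.7 and 52.2 CPM in Gel (34.4 ± 16.7). Its 3 group means lay within 1 CPM of each other. Ifit3 (ENSRNOG00000022839, chromosome 1, 252906234 to 252911382) had 97.3, 151 and 131 CPM in Mg-ALN@Gel (126 ± 27.2), 32.8, 160 and 18.6 CPM in ALN+Gel (70.3 ± 77.6), and 14.9, 251 and 239 CPM in Gel (168 ± 133). Ifit3 was below 33 CPM in 3 libraries, ALN+Gel 1, ALN+Gel 3 and Gel 1, and above 97 CPM in the other 6, so both ALN+Gel and Gel held low and high libraries.

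Irf7 (ENSRNOG00000017414, chromosome 1, 214248837 to 214252456) encodes the transcription factor that drives production of type I interferons. Irf7 had 38.7, 108 and 33.2 CPM in Mg-ALN@Gel (59.9 ± 41.6), 61.9, 55.0 and 50.4 CPM in ALN+Gel (55.8 ± 5.77), and 63.6, 23.8 and 85.9 CPM in Gel (57.7 ± 31.5). The ALN+Gel values lay inside the range of both other groups. Irf7 overlaps Phrf1, a gene on the opposite strand with 6475 counts in all, and the library protocol in the labels does not mention strand marking, so reads of the shared part cannot be told apart. Isg15 (ENSRNOG00000021802, chromosome 5, 173624310 to 173626248), the ubiquitin-like protein that is joined to other proteins after interferon, had 10.8, 40.1 and 16.2 CPM in Mg-ALN@Gel (22.4 ± 15.6), 19.7, 24.8 and 7.41 CPM in ALN+Gel (17.3 ± 8.93), and 12.1, 14.3 and 33 CPM in Gel (19.8 ± 11.5). Its groups overlapped in all 3 comparisons.

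**Figure D2:**
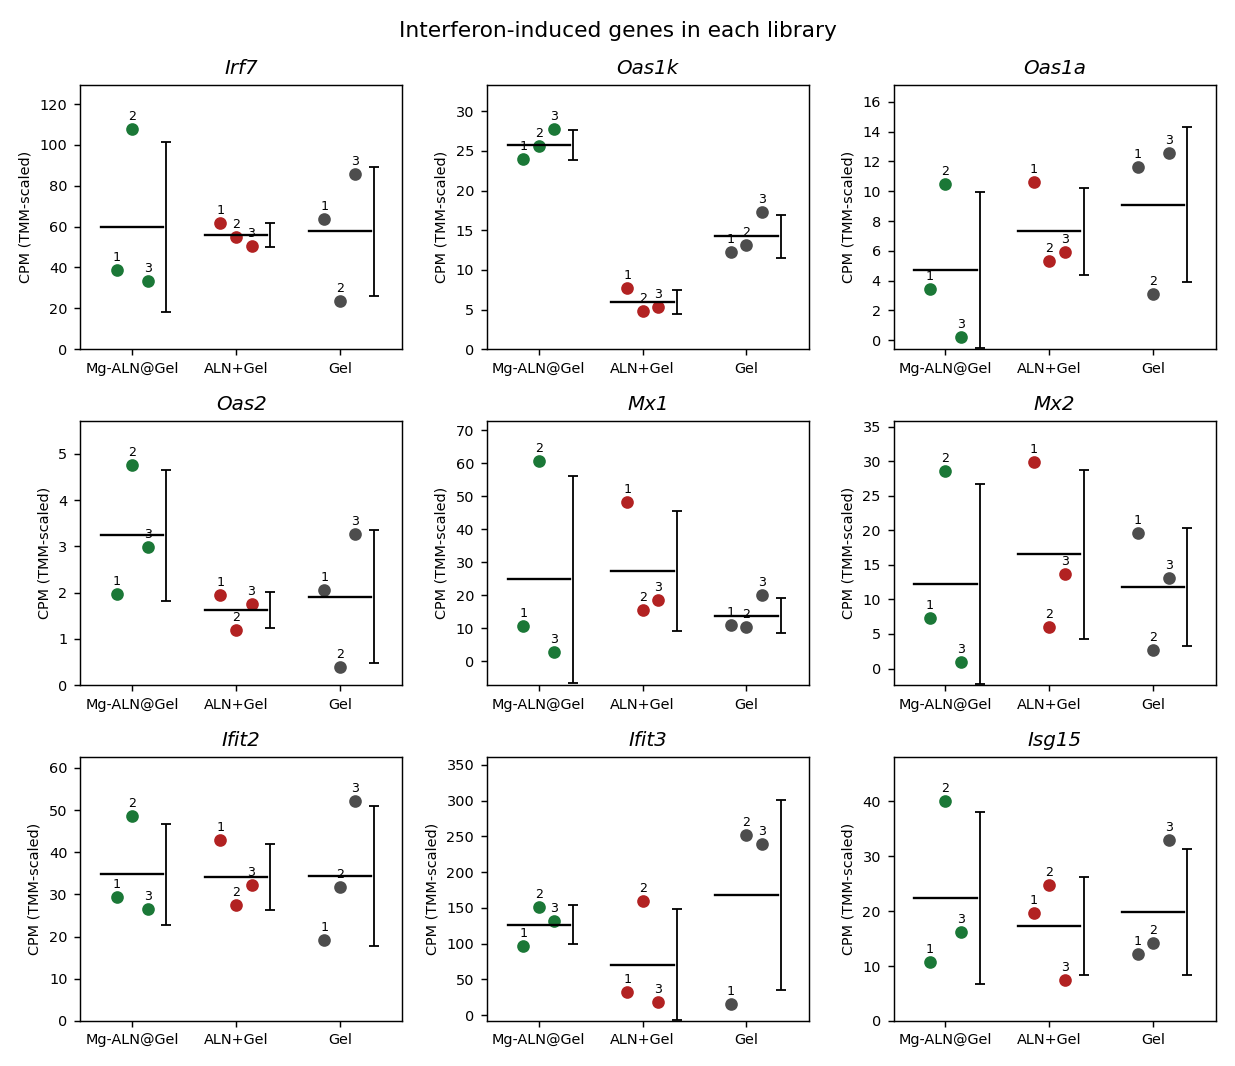
TMM-scaled CPM (linear axes) of the 9 genes in Mg-ALN@Gel, ALN+Gel and Gel, with a numbered point per library, a line at the group mean and a bar for the SD (n = 3), which in some panels extends below 0. Oas1k alone has 3 separate groups, at 24.0 to 27.8, 4.83 to 7.68 and 12.2 to 17.3 CPM, and Ifit3 has 3 low libraries at 14.9 to 32.8 CPM.

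None of the 8 genes other than Oas1k passed the edgeR test in any comparison, with adjusted p-values over all tested genes of 0.695 to 0.998, and none was called by DESeq2 or limma-voom. At an unadjusted p under 0.05 the count was also 0 of 8 in each comparison, beside 8.2%, 9.19% and 9.31% of all tested genes. With so few genes, a count of 0 does not set the 8 apart from those shares. In ALN+Gel against Gel, the log2 fold changes were 0.99 (SE 0.92) for Mx1, 0.49 (SE 1.07) for Mx2, −0.31 (SE 1.0) for Oas1a, −0.22 (SE 0.73) for Oas2, −0.01 (SE 0.38) for Ifit2, −1.26 (SE 0.98) for Ifit3, −0.05 (SE 0.53) for Irf7 and −0.20 (SE 0.61) for Isg15. The value of Ifit3 equalled that of Oas1k to 2 decimals, with a larger standard error. Without ALN+Gel library 2 the Ifit3 value was −2.81, and without ALN+Gel library 1 that of Mx1 was 0.30.

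In Mg-ALN@Gel against ALN+Gel, Ifit3 had a log2 fold change of 0.85 (SE 0.98), Isg15 of 0.37 (SE 0.61), Irf7 of 0.10 (SE 0.53) and Ifit2 of 0.03 (SE 0.38), while Oas1a had −0.63 (SE 1.01), Mx2 −0.42 (SE 1.07) and Mx1 −0.14 (SE 0.91). These values were each smaller than their standard error. Leaving out 1 library at a time gave 0.41 (without ALN+Gel library 3) to 2.34 (without ALN+Gel library 2) for Ifit3, and −1.95 (without Mg-ALN@Gel library 2) to −0.06 (without Mg-ALN@Gel library 3) for Oas1a. In Mg-ALN@Gel against Gel they were 0.84 (SE 0.91) for Mx1, 0.77 (SE 0.73) for Oas2, 0.18 (SE 0.61) for Isg15, 0.06 (SE 1.07) for Mx2, 0.05 (SE 0.53) for Irf7, 0.02 (SE 0.38) for Ifit2, −0.41 (SE 0.97) for Ifit3 and −0.94 (SE 1.01) for Oas1a. Here the value of Oas1a ran from −2.32 without Mg-ALN@Gel library 2 to −0.38 without Mg-ALN@Gel library 3, and that of Oas2 from 0.25 without Gel library 2 to 1.40 without Gel library 3. The value of Mx1 ran from −1.04 without Mg-ALN@Gel library 2 to 1.37 without Mg-ALN@Gel library 3. The comparisons share libraries, so their values for a gene are not independent. A band of 2 standard errors around each value spans differences of more than 2-fold for every one of the 8 genes except Ifit2, and the missed threshold does not show that the groups were alike.

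The median log2 fold change of the 9 genes was −0.20 for ALN+Gel against Gel, and for Mg-ALN@Gel it was 0.10 against ALN+Gel and 0.06 against Gel, beside −0.00, −0.04 and −0.03 for all tested genes. For the 8 without Oas1k it was −0.12, 0.07 and 0.06. Leaving out 1 library at a time moved the median of the 9 genes from −0.48 without Gel library 2 to 0.34 without Gel library 3 in ALN+Gel against Gel. In Mg-ALN@Gel against ALN+Gel it moved from −0.32 without Mg-ALN@Gel library 2 to 0.47 without ALN+Gel library 1. In Mg-ALN@Gel against Gel it moved from −0.61 without Mg-ALN@Gel library 2 to 0.45 without Gel library 3. The sign of the median therefore rested on single libraries in each comparison.

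**Figure D3:**
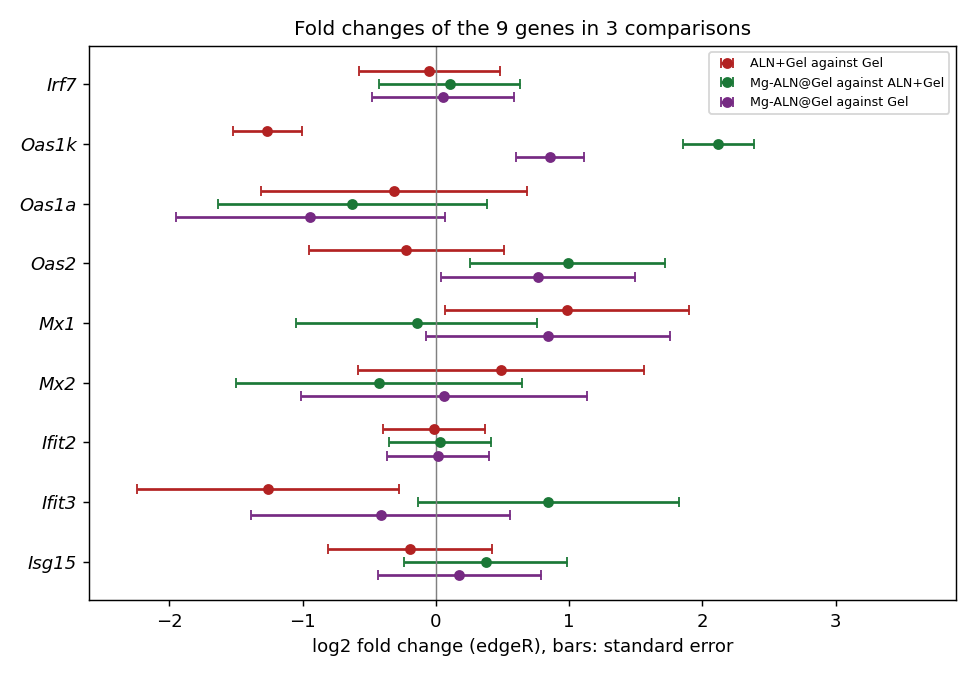
Log2 fold changes of the 9 genes from edgeR, as points with bars for the standard error, in the 3 comparisons (colours as in the key). Oas1k has −1.26, 2.12 and 0.86 with bars of about 0.26, while the bars of Oas1a, Mx2 and Ifit3 are about 1 log2 unit.

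Libraries of the same group differed along separate lines for different genes. Mg-ALN@Gel library 2 had the highest value of all 9 libraries for 4 of the 9 genes (Oas2, Mx1, Irf7 and Isg15), and Mg-ALN@Gel library 3 the lowest for 3 (Oas1a, Mx1 and Mx2). Over the 28 pairs among the 8 genes other than Oas1k, Pearson's r of log2 CPM across the 9 libraries was positive for 23, with a median of 0.41. For Oas1a with Mx2, r was 0.904 (two-sided exact permutation p = 0.000796, 0.0223 after adjustment over the 28 pairs) and Spearman's rho was 0.767 (exact permutation p = 0.0214, adjusted 0.119). The value was 0.947 for deviations from the group means, and 0.916 without the 2 libraries farthest from the median of Oas1a. For Mx1 with Mx2, r was 0.871 (exact permutation p = 0.00174, adjusted 0.0243) and rho was 0.833 (exact permutation p = 0.00827, adjusted 0.0772), with 0.866 within groups and 0.666 without the 2 libraries farthest from the median of Mx1. The other 26 pairs did not pass by r, and 0 of the 28 passed by rho. The values of Oas1k with the other 8 genes, given as a description, ran from −0.372 to 0.439, with a median of 0.07.

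Ifit3 followed a different order of libraries, shared with some other genes of the pathway. The 3 lowest libraries of Ifit3 (ALN+Gel 1, ALN+Gel 3 and Gel 1) were also the 3 lowest for Oasl and Oas3, which encode further OAS proteins. They were likewise the 3 lowest for Ifit1bl, another IFIT gene that was picked after its values were seen. Ifit1, a further IFIT gene, did not share this order. Its log2 CPM minus its mean was −1.48 in Mg-ALN@Gel 1, −4.60 in ALN+Gel 1, −1.17 in ALN+Gel 3 and 0.95 in Gel 1. Ifit1bl had 91.7, 121 and 119 CPM in Mg-ALN@Gel, 11.9, 63.8 and 3.10 CPM in ALN+Gel, and 3.13, 212 and 189 CPM in Gel. Oasl had 25.3, 20.8 and 12.3 CPM in Mg-ALN@Gel, 7.68, 18.1 and 2.73 CPM in ALN+Gel, and 4.70, 20.3 and 26.1 CPM in Gel. Summed macrophage markers, of which Lyz2 made up 77.4%, were lowest in the same 3 libraries, with 24603, 4309 and 5803 CPM in Mg-ALN@Gel, 3433, 9721 and 3101 CPM in ALN+Gel, and 1809, 10003 and 5440 CPM in Gel. Without Lyz2 the 3 lowest were Mg-ALN@Gel 2, Mg-ALN@Gel 3 and Gel 1, at 1007 to 1455 CPM, and ALN+Gel 1 stood at 1964 CPM. Only 2 of the 9 detected macrophage markers, Lyz2 and Mrc1, were each lowest in the Ifit3-low libraries. Summed neutrophil markers were also lowest there, with or without S100a9, which made up 49.3% of the sum, with 8484, 718 and 2182 CPM in Mg-ALN@Gel, 547, 571 and 91.0 CPM in ALN+Gel, and 141, 1302 and 899 CPM in Gel. Of the 10 macrophage markers 9 had counts in every library and Marco had none in any, and of the 10 neutrophil markers 8 had counts in every library. Singly, 2 of the neutrophil genes, Csf3r and Cxcr2, were lowest in those 3 libraries, whereas Mpo, Elane, Camp and Ngp were lowest in Mg-ALN@Gel 2 and Elane was highest in ALN+Gel 1, at 17.6 CPM. The part of these cells in the values of Ifit3 was not tested.

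**Figure D4:**
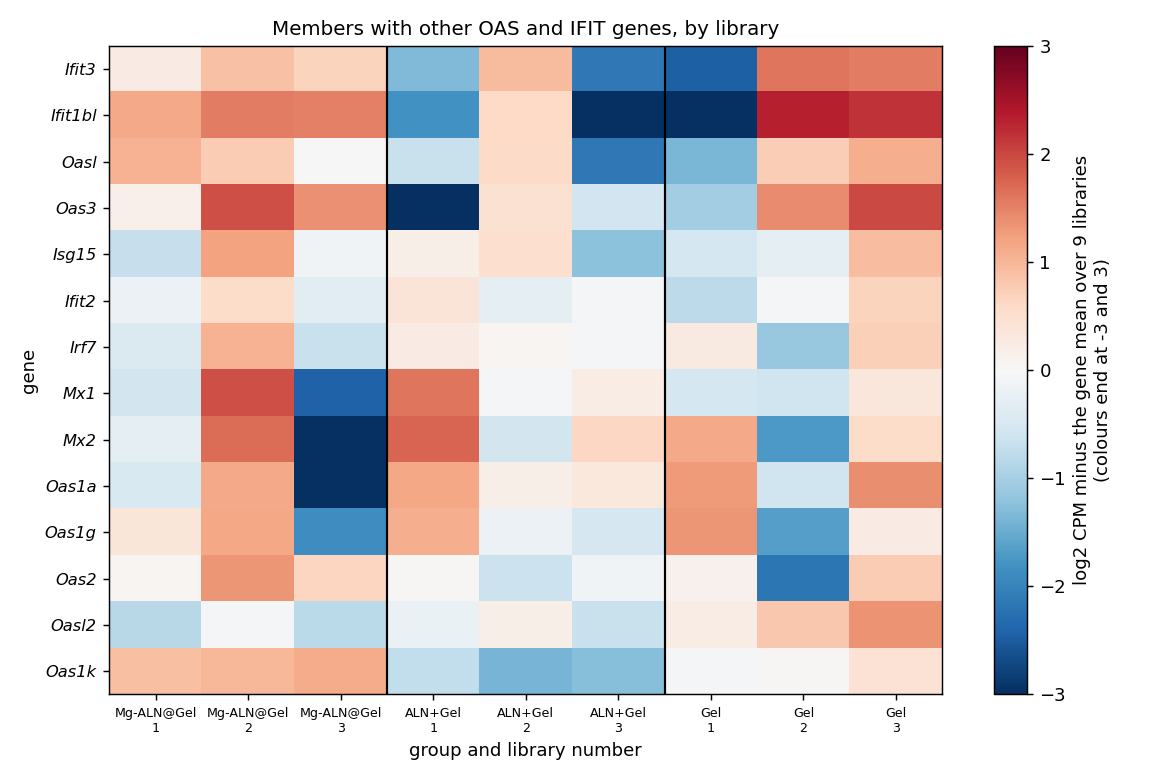
Log2 CPM minus each gene's mean over the 9 libraries, for the 9 genes with Ifit1bl, Oas1g, Oas3, Oasl and Oasl2, in columns for the libraries of Mg-ALN@Gel, ALN+Gel and Gel (colours end at −3 and 3). Ifit3, Ifit1bl, Oasl and Oas3 are low together in ALN+Gel 1, ALN+Gel 3 and Gel 1, Mx1, Mx2 and Oas1a are low in Mg-ALN@Gel 3, and the Oas1k row changes colour by group.

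The rest of the interferon pathway was described with a list of 122 entries in 10 lists, of which 113 matched a gene and 98 were tested. None of the 98 passed the edgeR test in any comparison, while 6, 9 and 13 had an unadjusted p under 0.05 in the 3 comparisons, in the order given above, beside the background shares of 8.2%, 9.19% and 9.31%. Log2 fold changes were positive for 33, 50 and 32 of the 98, with medians of −0.23, 0.01 and −0.19. Over all tested genes, 49.8%, 46.4% and 47.7% were positive and 50.2%, 53.6% and 52.2% negative. DESeq2 called 2 of the 98 in Mg-ALN@Gel against Gel, where it called 0.33% of all genes. They were Ciita, the master regulator of class II histocompatibility genes (adjusted p = 0.0350), and Tlr9, an endosomal sensor of DNA (adjusted p = 0.0368), both singled out after their values were seen. Ciita had 9.77 ± 0.775 CPM in Mg-ALN@Gel, 13.0 ± 3.07 CPM in ALN+Gel and 19.9 ± 1.64 CPM in Gel, and its log2 fold change in Mg-ALN@Gel against Gel was −1.02 (SE 0.24, edgeR adjusted p = 0.530). Tlr9 had 0.751 ± 0.376, 2.64 ± 1.2 and 3.83 ± 1.19 CPM in the same groups, and its log2 fold change was −2.33 (SE 0.60, edgeR adjusted p = 0.530). The dendritic cell markers Flt3 and Clec9a averaged 1.15 and 2.18 CPM in Mg-ALN@Gel, 4.24 and 5.99 CPM in ALN+Gel, and 3.27 and 5.93 CPM in Gel, and the part of such cells in the values of Ciita and Tlr9 was not tested.

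Among the genes that carry the signal inward, none of the 6 interferon receptor genes had an unadjusted p under 0.05 in any comparison. The shares over all tested genes were 8.2%, 9.19% and 9.31%, from which a count of 0 among 6 genes does not stand apart. Ifngr1 and Ifngr2, the chains of the interferon-gamma receptor, had 211 ± 55.8 and 110 ± 14.4 CPM in Mg-ALN@Gel, 124 ± 49.3 and 127 ± 38.1 CPM in ALN+Gel, and 183 ± 80.9 and 108 ± 36.7 CPM in Gel. Of the 10 JAK-STAT genes, all 10 had negative log2 fold changes in ALN+Gel against Gel, with a median of −0.38, beside 50.2% of all tested genes, and 0 passed the test. Their medians were 0.15 for Mg-ALN@Gel against ALN+Gel, and −0.16 against Gel. Socs3, an inhibitor of JAK kinases, had 181 ± 98.4 CPM in Mg-ALN@Gel, 73.7 ± 47.9 CPM in ALN+Gel and 303 ± 236 CPM in Gel, with a log2 fold change of −2.04 (SE 0.81, adjusted p = 0.578) in ALN+Gel against Gel. Socs3 was lowest in the same 3 libraries as Ifit3. Jak2, a kinase of the interferon-gamma receptor, had 196 ± 23.3, 106 ± 34.0 and 217 ± 116 CPM in the same groups, with a log2 fold change of −1.04 (SE 0.43, adjusted p = 0.588) in ALN+Gel against Gel. Jak1 had 172 ± 60.2 CPM in Mg-ALN@Gel, 175 ± 28.0 CPM in ALN+Gel and 241 ± 28.1 CPM in Gel. Stat2 and Irf9, subunits of the factor that binds the response element, had no unadjusted p under 0.05 in any comparison, with Stat2 at 57.3 ± 8.22, 51.3 ± 6.69 and 64.5 ± 9.0 CPM, and Irf9 at 35.3 ± 4.73, 27.5 ± 8.67 and 37.2 ± 4.88 CPM in Mg-ALN@Gel, ALN+Gel and Gel.

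For the regulatory factors related to Irf7, group means in Mg-ALN@Gel, ALN+Gel and Gel were 51.0, 63.2 and 52.5 CPM for Irf8, 55.2, 49.5 and 52.9 CPM for Irf3 and 42.7, 46.9 and 57.7 CPM for Irf1. In the list of 16 sensors and adaptors, Myd88, the adaptor of most Toll-like receptors, averaged 81.7, 47.5 and 71.9 CPM, and Eif2ak2, the kinase that double-stranded RNA activates, averaged 49.2, 49.9 and 46.9 CPM in the same order. Tbk1, the kinase that phosphorylates Irf3 and Irf7, averaged 37.2 ± 7.0 CPM in Mg-ALN@Gel, 55.9 ± 15.6 CPM in ALN+Gel and 45.5 ± 5.61 CPM in Gel, with a log2 fold change of −0.59 (SE 0.24, adjusted p = 0.523) in Mg-ALN@Gel against ALN+Gel. It was −0.34 without ALN+Gel library 1.

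Among the OAS relatives outside the 9 genes, Oasl2, an OAS-like protein with ubiquitin-like domains, had 10.1, 17.6 and 10.3 CPM in Mg-ALN@Gel (12.7 ± 4.30), 15.7, 20.5 and 11.3 CPM in ALN+Gel (15.8 ± 4.58), and 21.1, 31.6 and 46.4 CPM in Gel (33 ± 12.7). Every library of the 2 groups given ALN lay below every Gel library. Its log2 fold change was −1.06 (SE 0.37, adjusted p = 0.554) in ALN+Gel against Gel and −1.38 (SE 0.37, adjusted p = 0.530) in Mg-ALN@Gel against Gel, so that it did not pass in either, and the 2 comparisons share the Gel libraries. Groups that lay wholly lower made up 5.03% and 8.56% of all tested genes in these comparisons. Oas3, the largest synthetase, averaged 4.15 ± 2.26 CPM in Mg-ALN@Gel, 1.12 ± 1.13 CPM in ALN+Gel and 3.92 ± 2.91 CPM in Gel. Oas1g averaged 1.0 ± 0.798, 0.981 ± 0.632 and 1.05 ± 0.889 CPM, and Oasl 19.5 ± 6.63, 9.52 ± 7.86 and 17.1 ± 11.1 CPM in the same groups.

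Among the other effectors, the 13 IFIT, IFI and IFITM genes had a median log2 fold change of −0.23 for ALN+Gel against Gel, and for Mg-ALN@Gel one of 0.32 against ALN+Gel and −0.01 against Gel. Ifitm3, a membrane protein that hinders viral entry, had 418, 262 and 186 CPM in Mg-ALN@Gel, 142, 125 and 176 CPM in ALN+Gel, and 172, 213 and 157 CPM in Gel. Every Mg-ALN@Gel library lay above every ALN+Gel library for Ifitm3, with a log2 fold change of 0.97 (SE 0.31, adjusted p = 0.496), and one of 0.60 without Mg-ALN@Gel library 1. Of the 13 genes, 4 lay wholly higher in that comparison and 0 wholly lower, beside 6.76% and 9.77% of all tested genes. An unadjusted edgeR p under 0.05 was reached by 3 of the 13, beside 9.19% of all tested genes. Ifi30, a lysosomal thiol reductase, averaged 267, 298 and 274 CPM, and Ifi27 averaged 329, 233 and 220 CPM in Mg-ALN@Gel, ALN+Gel and Gel. Of the enzymes around Isg15, Ube2l6, which conjugates it, had 33.9, 23.3 and 11.6 CPM in Mg-ALN@Gel, 12.3, 15.1 and 13.3 CPM in ALN+Gel, and 11, 11.1 and 11.7 CPM in Gel, with a log2 fold change of 1.02 (SE 0.35, adjusted p = 0.530) in Mg-ALN@Gel against Gel. Without Mg-ALN@Gel library 1 that value was 0.63. Usp18, which removes Isg15, averaged 14.1 ± 5.03, 9.40 ± 2.21 and 12.8 ± 3.73 CPM in Mg-ALN@Gel, ALN+Gel and Gel. Trim25 averaged 13.4, 16.9 and 19.3 CPM and Herc6, an Isg15 ligase in mouse, 11.6, 12.4 and 16.7 CPM in the same groups.

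Among 18 further antiviral genes, Shisa5 had 239, 167 and 138 CPM in Mg-ALN@Gel, 71.1, 124 and 107 CPM in ALN+Gel, and 78.4, 148 and 145 CPM in Gel, with a log2 fold change of 0.85 (SE 0.33, adjusted p = 0.510) in Mg-ALN@Gel against ALN+Gel. Lgals3bp averaged 266, 194 and 306 CPM, and Bst2, which tethers budding viruses to the cell, averaged 51.7, 55.0 and 53.8 CPM in Mg-ALN@Gel, ALN+Gel and Gel. Of the 18 tested genes of the interferon-gamma response, 5 had positive log2 fold changes in Mg-ALN@Gel against Gel, with a median of −0.60, and 5 had an unadjusted p under 0.05, beside 47.7% and 9.31% of all tested genes. In ALN+Gel against Gel 10 were positive (median 0.23) and 2 had such a p, beside 49.8% and 8.2%. In Mg-ALN@Gel against ALN+Gel 7 were positive (median −0.23) and 1 had such a p, beside 46.4% and 9.19%. Tapbp, which loads peptides onto class I molecules, averaged 62.4 ± 4.37 CPM in Mg-ALN@Gel, 68.1 ± 7.36 CPM in ALN+Gel and 84.8 ± 8.10 CPM in Gel, with a log2 fold change of −0.44 (SE 0.17, adjusted p = 0.530) in Mg-ALN@Gel against Gel. B2m, the light chain of class I molecules, averaged 2295, 2174 and 1767 CPM, and Cd74, the invariant chain of class II molecules, 847, 799 and 717 CPM in the same groups.

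Genes with the pattern most like Oas1k were ranked by Pearson's r of log2 CPM across the 9 libraries, over 12159 protein-coding genes with a mean of at least 2 CPM. The first 5 were Nsg2 (0.903), Dap3 (0.881), Btg2 (0.881), Asrgl1 (0.880) and Tcof1 (0.879). None of these is in the interferon lists, and within groups their r with Oas1k was −0.08 to 0.40, so the likeness lay between groups more than within them. Those most like the mean of the 9 genes were LOC108348139 (0.902), described in the table as the class II histocompatibility antigen M beta 1 chain, RT1-S3 (0.895), a class Ib histocompatibility gene, LOC100910207 (0.888), described as Dr1-like, Slc12a8 (0.858) and Hmgn1 (0.851). Their r within groups was 0.88 to 0.91, and the mean of the 9 genes was highest in Mg-ALN@Gel library 2 and lowest in Mg-ALN@Gel library 3. These r values come from a search over all the ranked genes and are descriptions without a test.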

How the data were processed

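The authors deposited read counts per gene as whole numbers, with no normalization, and FPKM values that were not used here. Tools are listed without roles, per the submitters' processing notes, as featureCounts 1.5.0-p3, HISAT2 2.0.5, fastp, edgeR 3.22.5, StringTie 1.3.3b and DESeq2 1.20.0. The genome build is not given in the sources used here. Groups and library numbers came from the sample titles. Libraries of a group differed far beyond sampling noise (lowest chi-square per degree of freedom 75.8) and were kept separate.

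Tests were run with edgeR 4.0.16 under R 4.3.3. Low counts were filtered with filterByExpr, which left 15460 genes, libraries were scaled by TMM, and 1 quasi-likelihood model with the group as its factor covered all 9 libraries. P-values were two-sided, with Benjamini-Hochberg adjustment over all tested genes and a threshold of 0.05. A standard error is the size of the log2 fold change over the root of its F value, and log2 CPM had a prior count of 0.5. The fit was tested on simulated data. Alternatives were RLE scaling, no filter, DESeq2 1.42.0, limma-voom with quality weights (limma 3.58.1), only the 2 groups compared, a replicate block, the mitochondrial share as a covariate, and leaving out each library.

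The members and gene lists were chosen with earlier results of these data known. Beyond the 9 genes, the text names the OAS relatives, the main type I signalling genes, the 3 genes of highest mean CPM in each list with any that passed the test, and the 5 genes most like Oas1k or the mean of the 9. Some genes that this rule covers are not reported here. The titles number the libraries 1 to 3 in each group. Across genes, same-numbered libraries deviated together from their groups between ALN+Gel and Gel, with r of 0.341, 0.419 and 0.226, which met the rule for pairing (every value over 0.1). They were 0.130, −0.120 and −0.127 between Mg-ALN@Gel and ALN+Gel and −0.0767, −0.0452 and −0.199 between Mg-ALN@Gel and Gel, which did not. Differently numbered libraries gave r of −0.283 to −0.0125 between ALN+Gel and Gel. Between Mg-ALN@Gel and ALN+Gel such r ran from −0.184 to 0.320, and between Mg-ALN@Gel and Gel from −0.0786 to 0.175. An r over 0.1 is therefore no proof that libraries were paired.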

Additional observations from a re-analysis of the deposited data

How the results depend on the processing

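None of the 8 genes other than Oas1k passed under any alternative. The number of genes passing over the whole table moved: DESeq2 called 135 in ALN+Gel against Gel, 178 between Mg-ALN@Gel and ALN+Gel, and 51 between Mg-ALN@Gel and Gel, and limma-voom called 263, 2 and 0, against 0 by edgeR each time. The cause was not tested. Leaving out a library gave 0 to 1 called genes in ALN+Gel against Gel, with the 1 call made without ALN+Gel library 3. Low counts limit Oas2 and Oas1a most, with Oas1a at the floor of 3 counts in Mg-ALN@Gel library 3. Some log2 fold changes changed sign, among them values away from 0 such as the 0.84 of Mx1 in Mg-ALN@Gel against Gel. That value was −1.04 without Mg-ALN@Gel library 2. The cause of the changes under other processing was not tested. The replicate block changed no call. In ALN+Gel against Gel it gave 0.056 for Ifit2, and with only the 2 groups compared, a fit added after seeing the data, 0.066 for Ifit2, 0.12 for Oas2 and 0.12 for Irf7. The block gave −0.00136 for Ifit2 between Mg-ALN@Gel and ALN+Gel, and −0.036 for Mx2, 0.072 for Ifit3, −0.017 for Irf7 and −0.00949 for Isg15 in Mg-ALN@Gel against Gel. In ALN+Gel against Gel, limma-voom gave 0.34 for Oas2 and 0.29 for Irf7, and the mitochondrial covariate 0.10 for Ifit2 and 0.070 for Irf7. That covariate gave −0.021 for Ifit2 between Mg-ALN@Gel and ALN+Gel, and 0.15 for Ifit3 in Mg-ALN@Gel against Gel. In the last comparison Ifit2 was −0.000977 with RLE scaling, −0.040 without the filter, −0.000971 with DESeq2, −0.063 with limma-voom and −0.026 with only the 2 groups, and limma-voom gave −0.00335 for Mx1 and −0.10 for Mx2. Of 278 alternative values for single genes, without the fits that leave out a library, 254 kept their direction and side of the threshold and 22 changed sign.

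Leaving out 1 library at a time in ALN+Gel against Gel gave −0.77 to 0.38 for Oas2, −0.25 to 1.07 for Mx2, −0.30 to 0.36 for Ifit2, −0.48 to 0.32 for Irf7 and −0.63 to 0.34 for Isg15. In Mg-ALN@Gel against ALN+Gel it gave −1.95 to 0.54 for Mx1, −1.94 to 0.32 for Mx2, −0.24 to 0.22 for Ifit2, −0.59 to 0.39 for Irf7 and −0.32 to 0.76 for Isg15. Between Mg-ALN@Gel and Gel it gave −1.04 to 1.37 for Mx1, −1.51 to 0.65 for Mx2, −0.33 to 0.42 for Ifit2, −0.70 to 0.45 for Irf7 and −0.59 to 0.73 for Isg15.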
